A study of Rattus with 6 samples.

Results

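Cga and Pomc encode the precursors of pituitary hormones other than prolactin and growth hormone, and both were measured in aspirin-treated and solvent-treated cells of the rat pituitary adenoma line RC-4B/C. The genes were taken as the rows of the deposited exon table that carry either symbol, which gave 2 genes of 12801 and 3 exon rows of 118147. Cga had 2 exon rows and Pomc had 1. The 6 libraries of polyadenylated RNA formed 2 groups, 3 from cells given ASA, which is aspirin or acetylsalicylic acid and blocks cyclooxygenase enzymes, and 3 from control cells given the solvent dimethyl sulfoxide (DMSO). All 6 came from the same cell line, and the labels give neither a dose nor a duration. Separate cultures are not stated either, so each p-value below measures the spread between these libraries, which may be technical. The line GH3, which the series design also names, was not analysed here.

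Cga is the common alpha subunit of the glycoprotein hormones. It pairs with a hormone-specific beta subunit to form luteinizing hormone, follicle-stimulating hormone or thyroid-stimulating hormone, and in the anterior pituitary it is a product of gonadotrophs and thyrotrophs. Pomc, proopiomelanocortin, is a prohormone that is cut by convertases into corticotropin in corticotrophs, and further into alpha-melanocyte-stimulating hormone and beta-endorphin in melanotrophs. Transcription of Pomc in these cells depends on the T-box factor Tbx19, and that of Cga on pituitary homeodomain factors such as Pitx1 and Lhx3. RC-4B/C was established from a rat pituitary adenoma and has been described as a mixture of hormone-producing cell types.

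Facts of the whole table bear on these genes as follows. Each library had between 66492446 and 94486061 reads over all listed exons. ASA replicate 2 stood apart, with the lowest depth, 497 exons at 0 reads against 4 to 13 in the other 5 libraries, a scatter of exons within genes of 0.473 on the log2 scale against 0.134 to 0.144, and 5.44% of its reads from the mitochondrial genome against 2.65% to 3.22%. DMSO replicate 2 differed from the other DMSO libraries in Pomc, as given below. Each main result is therefore also given without these libraries. Each row of the table has over 10 reads in 4 or more libraries.

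Cga fell with ASA. Its gene level, as reads normalised to the length of the listed exons and to the reads of the library (RPKM), was 3.24, 4.17 and 1.16 in ASA replicates 1, 2 and 3, against 28.3, 23.8 and 25.2 in DMSO replicates 1, 2 and 3. All ASA libraries lay far below all DMSO libraries, and the lowest DMSO level was 5.70 times the highest ASA level. The mean was 2.86 ± 1.54 RPKM in ASA libraries and 25.8 ± 2.33 RPKM in DMSO libraries (SD, n = 3 each). The log2 fold change was -3.30 ± 0.45 (SE), with a 95% interval of -4.35 to -2.25, so Cga was 9.84-fold lower on the log2(RPKM + 0.1) scale (limma, adjusted p = 0.0137 over 12502 genes). In bulk RNA, fewer cells that make a transcript and less of it per cell cannot be told apart.

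The same test called 11.2% of the genes tested, 4.99% lower and 6.21% higher in ASA libraries, and the groups did not overlap in 38.7% of the genes, with all ASA libraries below all DMSO libraries in 18.8% and above them in 19.9%. Against that background Cga had rank 20 from the lowest of 12502 log2 fold changes, and rank 8 by the ratio of its lowest DMSO level to its highest ASA level. The median log2 fold change of all genes tested was -0.06, and relative to that median Cga was lower by a log2 difference of -3.24.

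The direction of the Cga difference was kept without any single library, and its call was not. Its size ran from 6.83-fold to 12.6-fold lower. Cga was 12.6-fold lower without ASA replicate 2 (limma, adjusted p = 0.00712), 11.1-fold lower without ASA replicate 1 (adjusted p = 0.0159) and 10.2-fold lower without DMSO replicate 2 (adjusted p = 0.0296). It missed the threshold without ASA replicate 3 (6.83-fold lower, adjusted p = 0.0806), DMSO replicate 1 (9.37-fold lower, adjusted p = 0.0604) or DMSO replicate 3 (9.94-fold lower, adjusted p = 0.0867). In the fit without ASA replicate 3 no gene passed the adjustment, and Cga had rank 2 of all genes by its unadjusted p. Without both libraries numbered 2, a setting chosen after seeing the data, Cga was 13.05-fold lower (limma, adjusted p = 0.00569).

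**Figure D1:**
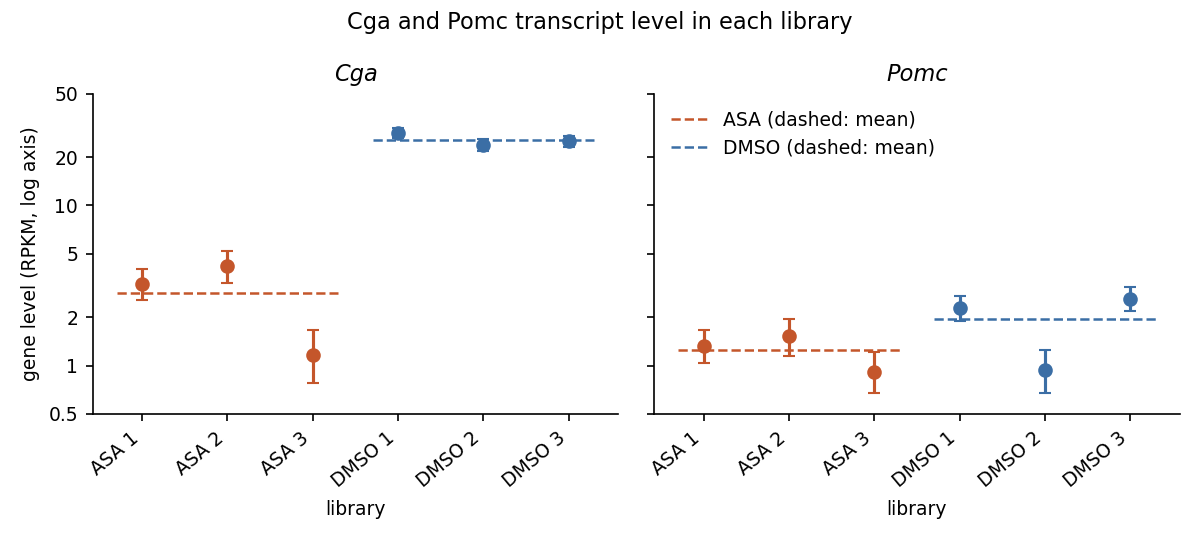
Gene level of Cga (left) and Pomc (right) in RPKM on a log axis, for the 3 ASA and the 3 DMSO libraries. Points are libraries, bars are 95% Poisson intervals of the recovered reads (counting error only) and dashed lines are group means. Cga lies between 1.16 and 4.17 in ASA libraries and between 23.8 and 28.3 in DMSO libraries, while for Pomc DMSO replicate 2 lies among the ASA libraries.

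Within the groups Cga varied more in ASA than in DMSO libraries. Its coefficient of variation was 53.8% in ASA libraries and 9.06% in DMSO libraries. The reads behind it numbered 85, 79 and 29 in ASA replicates 1, 2 and 3, against 763, 557 and 660 in DMSO replicates 1, 2 and 3. ASA replicate 3 was the lowest, and its 95% Poisson interval of 0.780 to 1.67 RPKM did not reach those of ASA replicate 1 (2.59 to 4.01 RPKM) or ASA replicate 2 (3.30 to 5.196 RPKM). Relative to the DMSO mean, the level was 12.6%, 16.2% and 4.52% in ASA replicates 1, 2 and 3. Poisson and binomial intervals here cover counting error only, since reads without molecular identifiers are not independent molecules.

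In terms of order among the listed genes, Cga moved from the middle towards the low end. The share of genes with a lower RPKM than Cga was 15.6%, 24.1% and 6.87% in ASA replicates 1, 2 and 3, against 57.3%, 54.6% and 54.9% in DMSO replicates 1, 2 and 3. The DMSO libraries thus agreed closely on its place, and the ASA libraries placed it lower and less evenly.

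Both listed exons of Cga gave the same picture. From the form of the row identifiers they were read as exons 1 and 2 of 3, a numbering that is not stated with the data. They lie on the plus strand of chromosome 5 of Rnor_6.0 (ENSRNOG00000009269), exon 1 from 50390591 to 50390690 and exon 2 from 50391661 to 50391845, with lengths of 100 and 185 bases. Exon 3 was not analysed here. Exon 1 had 3.91, 6.47 and 1.72 RPKM in ASA replicates 1, 2 and 3, against 37.9, 29.3 and 32.4 RPKM in DMSO replicates 1, 2 and 3. Exon 2 had 2.88, 2.93 and 0.866 RPKM in ASA replicates 1, 2 and 3, against 23.2, 20.8 and 21.3 RPKM in DMSO replicates 1, 2 and 3. For neither exon did the groups overlap, and exon 1 was the higher of the 2 per base in each of the 6 libraries.

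In a limma fit over all 118147 exons both Cga exons were called, exon 1 with a log2 fold change of -3.19 ± 0.48 (SE), 9.12-fold lower, at an adjusted p of 0.0353, and exon 2 with -3.41 ± 0.49 (SE), 10.6-fold lower, at an adjusted p of 0.0350. That fit called 2.48% of all exons, and 0.883% of all exons as lower in ASA libraries. Neither exon was called when ASA replicate 3 or any DMSO library was left out (0 of the 3 exons of Cga and Pomc in each fit). The exons share their source and are not replicates of each other.

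The balance between the exons showed no detectable change. Exon 1 held 42.4%, 54.4% and 51.7% of the Cga reads in ASA replicates 1, 2 and 3, against 46.9%, 43.3% and 45.2% in DMSO replicates 1, 2 and 3. The 95% Wilson intervals were wide in ASA libraries, 34.4% to 68.6% in ASA replicate 3, against 43.4% to 50.5% in DMSO replicate 1. The log2 fold changes of the exons differed by 0.22 (exon 1 minus exon 2), with a 95% interval of -1.32 to 1.76 and an adjusted p of 1 (limma diffSplice F test, unadjusted p = 0.763). The test called 0.145% of 11038 genes. An interval this wide leaves room for a difference of over 2-fold between the exons in either direction at this depth.

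**Figure D2:**
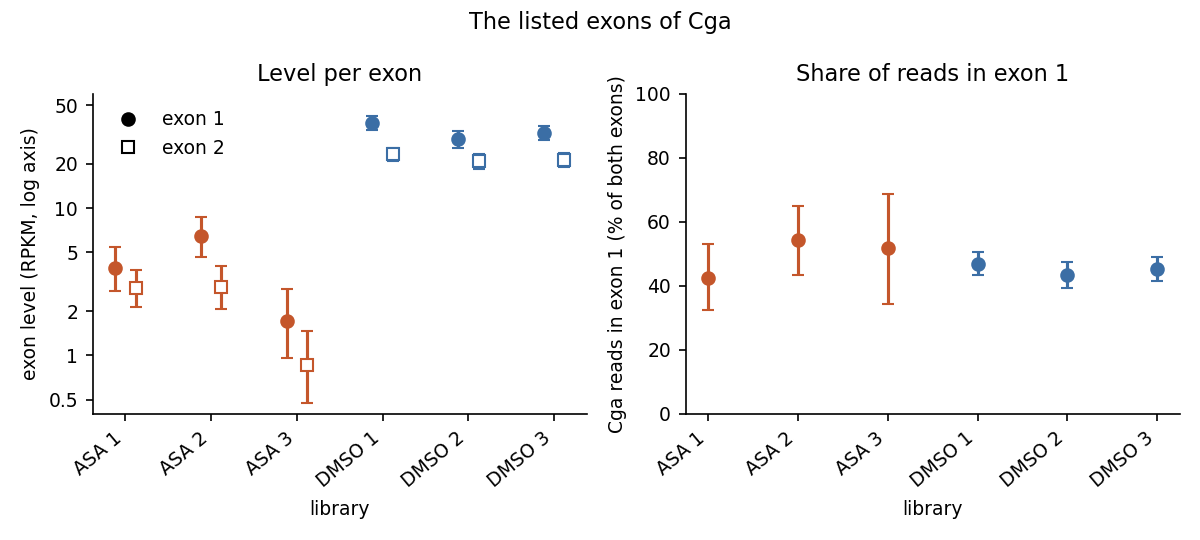
The 2 listed exons of Cga in the 3 ASA and the 3 DMSO libraries. Left, level per exon in RPKM on a log axis with 95% Poisson intervals; right, the percentage of Cga reads that fell in exon 1 with 95% Wilson intervals. Both exons are lower in every ASA library, and the share in exon 1 lies between 42.4% and 54.4% in ASA libraries and between 43.3% and 46.9% in DMSO libraries.

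Pomc was near the lower end of the table in every library. Its gene level was 1.33, 1.52 and 0.919 RPKM in ASA replicates 1, 2 and 3, against 2.29, 0.934 and 2.62 RPKM in DMSO replicates 1, 2 and 3. The groups overlapped, since DMSO replicate 2 lay within the ASA range. The mean was 1.26 ± 0.31 RPKM in ASA libraries and 1.95 ± 0.89 RPKM in DMSO libraries (SD, n = 3 each). The log2 fold change of -0.50 ± 0.47 (SE) did not pass (limma, adjusted p = 0.492), and its 95% interval of -1.58 to 0.58 holds both a fall of over 2-fold and a small rise.

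The spread of Pomc within the DMSO group was larger than its counting error. The single listed exon spans 573 bases from 28388085 to 28388657 on the plus strand of chromosome 6 (ENSRNOG00000012686, read as 2 of 2). It held 70, 58 and 46 reads in ASA replicates 1, 2 and 3. It held 124, 44 and 138 reads in DMSO replicates 1, 2 and 3. The 95% Poisson interval of DMSO replicate 2, 0.679 to 1.25 RPKM, did not reach those of DMSO replicate 1 (1.90 to 2.73 RPKM) or DMSO replicate 3 (2.20 to 3.09 RPKM). The share of genes with a lower RPKM than Pomc was 7.48%, 13.0% and 5.23% in ASA replicates 1, 2 and 3, against 12.9%, 5.99% and 14.2% in DMSO replicates 1, 2 and 3. With 1 listed exon no test of exon usage could be made.

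DMSO replicate 2 set the size of the Pomc difference. Without it the groups did not overlap and Pomc was 1.92-fold lower in ASA libraries (log2 fold change -0.94, limma adjusted p = 0.223). Without both libraries numbered 2 it was 2.11-fold lower (log2 fold change -1.08, 95% interval -1.90 to -0.26, adjusted p = 0.0616), which also missed the threshold. Leaving out each of the 6 libraries in turn gave Pomc log2 fold changes of -0.94 to -0.24, none past the threshold (limma, adjusted p between 0.223 and 0.847).

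**Figure D3:**
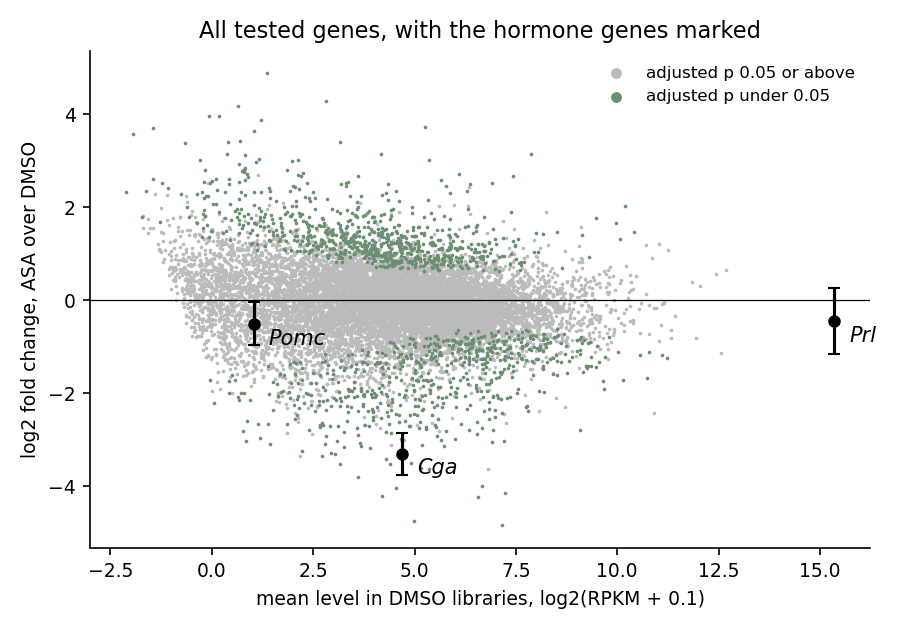
Log2 fold change of ASA over DMSO against the mean level in DMSO libraries for the 12502 tested genes, with Cga, Pomc and Prl marked in black (bars: SE). Cga at -3.30 lies below most genes of its level, while Pomc at -0.50 and Prl at -0.44 lie closer to zero.

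The ratio of Cga to Pomc within a library does not depend on depth. It was 2.34, 2.63 and 1.24 in ASA replicates 1, 2 and 3, against 11.9, 23.1 and 9.30 in DMSO replicates 1, 2 and 3, on RPKM + 0.1. The groups did not overlap. The mean log2 ratio was 0.98 ± 0.58 in ASA libraries and 3.77 ± 0.68 in DMSO libraries (SD, n = 3 each), a difference of -2.79 (exact two-sided permutation test, p = 0.1, the smallest that 3 libraries against 3 allow). In the values, Cga thus differed more between the groups than Pomc did, and an exact permutation test of these libraries cannot go below that p.

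Prl, which encodes prolactin and was the most abundant gene in all 6 libraries, had overlapping groups. Its level was 14037, 62101 and 26174 RPKM in ASA replicates 1, 2 and 3, against 22006, 62170 and 41835 RPKM in DMSO replicates 1, 2 and 3, a log2 fold change of -0.44 ± 0.71 (SE) that did not pass (limma, adjusted p = 0.700). It was 0.07 without ASA replicate 1. ASA replicate 2 and DMSO replicate 2 had nearly the same Prl level, and Cga was 4.17 RPKM in ASA replicate 2 and 23.8 RPKM in DMSO replicate 2. Of the 7 pituitary hormone genes listed for this tissue, Prl, Cga and Pomc were tested and 1, Cga, fell. Among all genes tested 4.99% were called lower. Cga is the gene reported on above, so this count is not separate evidence. The beta subunit genes Lhb, Fshb and Tshb and growth hormone, Gh1, were not analysed here.

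Of the genes for glycoprotein hormone receptors and the remaining subunits, the thyrotropin receptor Tshr had values. It was under the filter of a mean of 0.5 RPKM that a gene needed to be tested. Its level was 0.762, 0.714 and 0.625 RPKM in ASA replicates 1, 2 and 3, against 0.135, 0.147 and 0.0771 RPKM in DMSO replicates 1, 2 and 3. The groups did not overlap, with the ASA libraries higher, as in 19.9% of all genes tested. Tshr had 67 to 99 reads in ASA libraries and 10 to 18 in DMSO libraries. In the limma fit without that filter Tshr was 3.67-fold higher (log2 fold change 1.88 ± 0.35 SE, adjusted p = 0.024). That call was not followed with single libraries left out or under other scalings. The other 7 genes of that list besides Cga were not analysed here.

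Among the transcription factors and receptors known to act on Cga, 15 of 23 listed genes were tested, 1 rose and none fell, beside 6.21% higher and 4.99% lower among all genes tested. The median log2 fold change of the 15 was 0.22, against -0.06 over all genes tested. Jun, a subunit of the AP-1 factor through which gonadotropin-releasing hormone signals, rose 4.76-fold, with 30.97, 117 and 58.3 RPKM in ASA replicates 1, 2 and 3, against 11.1, 16.1 and 10.7 RPKM in DMSO replicates 1, 2 and 3 (limma, adjusted p = 0.0285). Its partner Fos averaged 6.52 RPKM in ASA libraries and 6.87 RPKM in DMSO libraries. Jun kept its call without ASA replicate 1 or ASA replicate 2 and lost it without any of the other 4 libraries (limma, adjusted p between 0.0146 and 0.129). Under median-of-ratios scaling the list had 1 gene higher and 1 lower, and without ASA replicate 1 it had 2 higher and 1 lower. Over all genes these fits called 1574 and 2018, against 1400 in the main fit.

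The homeodomain factors of Cga transcription were present in both groups. Pitx1 averaged 31.2 ± 13.6 RPKM in ASA libraries and 34.3 ± 5.41 RPKM in DMSO libraries, and Lhx3, a LIM factor needed for several pituitary lineages, 188 ± 45.9 RPKM in ASA libraries and 221 ± 40.6 RPKM in DMSO libraries (SD, n = 3 each). Thrb, a thyroid hormone receptor that represses Cga in the presence of its ligand, averaged 31.5 RPKM in ASA libraries and 96.3 RPKM in DMSO libraries, and its log2 fold change of -1.88 did not pass (limma, adjusted p = 0.0705). Thrb was called, with ASA libraries lower, under median-of-ratios scaling (-1.84, limma adjusted p = 0.0487), without ASA replicate 1 (-2.29, adjusted p = 0.0453), without ASA replicate 2 (-1.15, adjusted p = 0.0170) and without both libraries numbered 2 (-1.34, adjusted p = 0.00441). Nr5a1, the gonadotroph factor SF-1, averaged 1.19 RPKM in ASA libraries and 1.33 RPKM in DMSO libraries.

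Among the genes listed as regulators of Pomc, 20 of 27 were tested, 2 rose and 1 fell. Whether each of them, Neurod4 included, acts on Pomc in these cells was not tested. Over all genes tested 6.21% rose and 4.99% fell. The median log2 fold change was -0.27, against -0.06 over all genes tested. Il6st, the shared signalling subunit of the receptors for interleukin 6 and leukemia inhibitory factor, rose 2.16-fold (131 ± 39.0 RPKM in ASA and 58.9 ± 5.30 RPKM in DMSO libraries, limma adjusted p = 0.0366). Egfr, the epidermal growth factor receptor, rose 3.602-fold (16.7 ± 5.33 RPKM in ASA and 4.58 ± 1.68 RPKM in DMSO libraries, limma adjusted p = 0.0290). Neurod4, a basic helix-loop-helix factor of neuroendocrine cells, fell to 25.5, 21.5 and 31.5 RPKM in ASA replicates 1, 2 and 3, against 60.96, 93.9 and 77.1 RPKM in DMSO replicates 1, 2 and 3, 2.94-fold lower (limma adjusted p = 0.0155). The groups did not overlap for any of these 3 genes, as in 38.7% of all genes tested. The 3 were named because they were called, so this is not separate evidence. Of the 3, Neurod4 alone kept its call without DMSO replicate 1, Il6st kept it only without ASA replicate 2, and Egfr kept it without ASA replicate 1, ASA replicate 2 or DMSO replicate 2. None was called without ASA replicate 3 or DMSO replicate 3, and Il6st also lost its call under eBayes without trend (limma, adjusted p = 0.0543). Under median-of-ratios scaling the list had 2 genes higher and 4 lower, and without ASA replicate 1 it had 1 higher and 5 lower. The genes called lower over the whole table numbered 768 and 1036 in these fits, against 624 in the main fit.

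The defining factor of Pomc cells was as low as Pomc. Tbx19 had 0.779, 2.61 and 1.60 RPKM in ASA replicates 1, 2 and 3, against 0.879, 0.459 and 1.11 RPKM in DMSO replicates 1, 2 and 3. The groups overlapped (limma log2 fold change 0.87 ± 0.53 SE, adjusted p = 0.307). Pax7, the factor that specifies melanotrophs, averaged 1.52 RPKM in ASA libraries and 3.32 RPKM in DMSO libraries (adjusted p = 0.245). The glucocorticoid receptor Nr3c1, which mediates feedback on Pomc, averaged 38.5 RPKM in ASA libraries and 26.9 RPKM in DMSO libraries (adjusted p = 0.182). The nuclear receptor Nr4a1, an activator of Pomc downstream of corticotropin-releasing hormone, averaged 48.0 RPKM in ASA libraries and 43.1 RPKM in DMSO libraries (adjusted p = 0.831).

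The enzymes that turn prohormones into peptides had higher levels than Pomc itself on the RPKM scale. Of 15 listed processing genes 13 were tested, 1 rose and 2 fell, with a median log2 fold change of 0.31. The shares over all genes tested were 6.21% higher and 4.99% lower. Pcsk1, the convertase that releases corticotropin, had 38.0, 35.1 and 43.3 RPKM in ASA replicates 1, 2 and 3, against 30.2, 38.2 and 26.4 RPKM in DMSO replicates 1, 2 and 3. These groups overlapped (limma, adjusted p = 0.355). Pcsk2, the convertase that cuts corticotropin further, fell to 23.7, 14.7 and 18.0 RPKM in ASA replicates 1, 2 and 3, against 41.8, 47.4 and 41.3 RPKM in DMSO replicates 1, 2 and 3, 2.35-fold lower (limma, adjusted p = 0.0232). Rnpep, an aminopeptidase, was 1.73-fold lower, with 59.3, 62.5 and 51.9 RPKM in ASA replicates 1, 2 and 3, against 102, 97.1 and 100.8 RPKM in DMSO replicates 1, 2 and 3 (limma, adjusted p = 0.0295). Ctsb, a cysteine protease of lysosomes, rose 2.66-fold (1497 ± 306 RPKM in ASA and 556 ± 34.0 RPKM in DMSO libraries, limma adjusted p = 0.0156). For each of these 3 called genes the groups did not overlap, as in 38.7% of all genes tested, which adds little to the calls.

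The carboxypeptidase Cpe, which trims the cut peptides, averaged 372 RPKM in ASA libraries and 258 RPKM in DMSO libraries (limma, adjusted p = 0.0741). The amidating enzyme Pam averaged 184 RPKM in ASA libraries and 120 RPKM in DMSO libraries (adjusted p = 0.0827), and Scg5, the chaperone of the Pcsk2 product, 281 RPKM in ASA libraries and 172 RPKM in DMSO libraries (adjusted p = 0.0735). None of these 3 passed, and for each the lowest ASA library lay above the highest DMSO library, as in 19.9% of all genes tested. Without ASA replicate 2 the count in the processing list was 5 higher and 2 lower. That fit called 1608 genes higher and 1010 lower over the whole table, against 776 and 624 in the main fit. Leaving out DMSO replicate 2 kept the call of Ctsb and ended those of Pcsk2 and Rnpep, and leaving out ASA replicate 3 or either of the other DMSO libraries ended all 3.

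Of the 15 genes of secretory granules and their release, all tested, none rose and 2 fell, with a median log2 fold change of -0.03. These counts stand beside 6.21% higher and 4.99% lower among all genes tested. Syt1, a calcium sensor of exocytosis, was 2.51-fold lower (10.8 ± 4.12 RPKM in ASA and 26.3 ± 2.82 RPKM in DMSO libraries, limma adjusted p = 0.0349). Cadps, a factor that primes dense-core granules, was 2.40-fold lower (18.3 ± 7.15 RPKM in ASA and 42.0 ± 6.75 RPKM in DMSO libraries, limma adjusted p = 0.0496). Both kept their calls without ASA replicate 1 or ASA replicate 2 and lost them without any of the other 4 libraries. Cadps also lost its call under 5 other settings (limma, adjusted p up to 0.0648). With the median exon as gene value Syt1 lost its call too (limma, adjusted p = 0.0511), which left 0 genes called in the list. Without ASA replicate 2 the list had 3 genes higher and 2 lower, in a fit that called 1608 genes higher over the whole table, against 776. Of the melanocortin and opioid receptors, which bind Pomc products, Oprm1 was tested and averaged 10.6 RPKM in ASA libraries and 9.34 RPKM in DMSO libraries (adjusted p = 0.831).

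**Figure D4:**
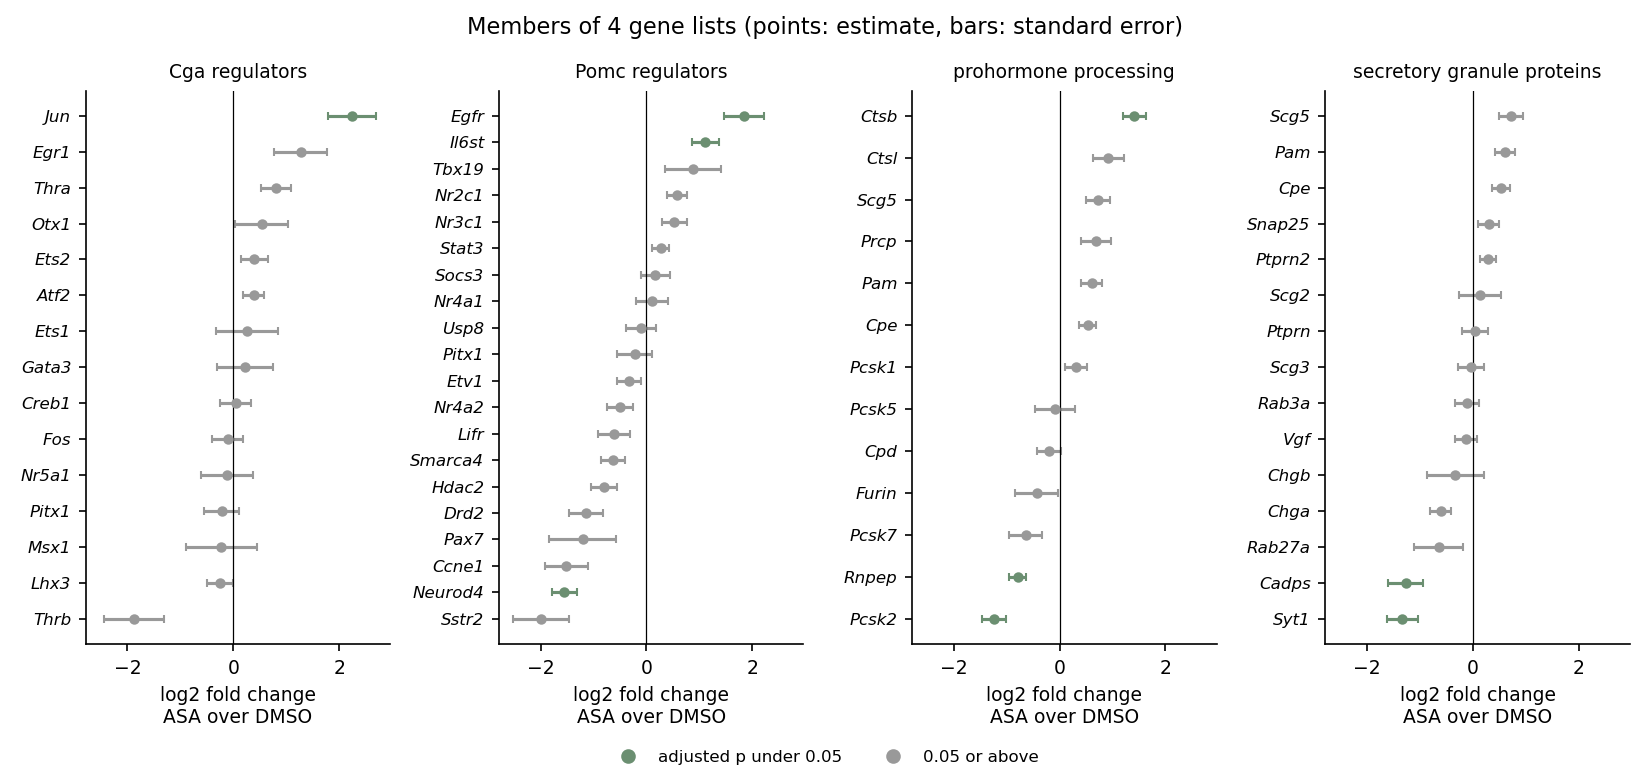
Log2 fold change of ASA over DMSO for the tested members of 4 gene lists, from the limma fit over 12502 genes (points: estimate, bars: SE, green: adjusted p under 0.05). Among 15 listed Cga regulators Jun alone passed, and among 20 listed Pomc regulators Egfr, Il6st and Neurod4. Among 13 processing genes Ctsb, Rnpep and Pcsk2 passed, and among 15 granule genes Cadps and Syt1.

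Markers of the cell types that make these hormones were sparse. Beside the marker counts below, 6.21% of all genes tested were higher and 4.99% lower, and no list was tested against these shares. Of 7 gonadotroph markers 3 were tested. Besides Cga these were Nr5a1 and Tgfbr3l, whose summed level was 2.54 to 4.32 RPKM in ASA libraries and 4.87 to 6.07 RPKM in DMSO libraries, and neither passed. Of 5 thyrotroph markers 2 were tested, and Dio2, the one besides Cga, had 30.2, 1.49 and 11.03 RPKM in ASA replicates 1, 2 and 3, against 27.1, 50.2 and 35.7 RPKM in DMSO replicates 1, 2 and 3, with overlapping groups (limma, adjusted p = 0.169). With ASA replicate 1 left out, Dio2 was called at a log2 fold change of -3.12 (limma, adjusted p = 0.0428). The defining markers Gnrhr, Foxl2 and Trhr were not analysed here. For the labelled pituitary origin, Pou1f1, the factor of lactotrophs, somatotrophs and thyrotrophs, had 725 ± 108 RPKM in ASA libraries and 669 ± 73.8 RPKM in DMSO libraries (SD, n = 3 each).

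Of 7 genes listed as corticotroph markers 4 were tested, Pomc, Tbx19, Pcsk1 and Gal. Of these 1, the neuropeptide gene Gal, fell, a call lost without ASA replicate 3 or DMSO replicate 3. Whether Gal marks corticotrophs in this line was not tested. The summed level of the tested genes without Pomc was 40.3 to 48.0 RPKM in ASA libraries and 65.6 to 335 RPKM in DMSO libraries. In DMSO replicates 2 and 3 most of it was Gal. Of the genes summed, Gal alone had a negative log2 fold change. Tbx19 (0.87) and Pcsk1 (0.31) were higher in ASA libraries and Pomc (-0.50) lower, none past the threshold. Of 5 melanotroph markers 4 were tested and 1, Pcsk2, fell. Their summed level without Pomc, most of it Pcsk2, was 18.8 to 24.96 RPKM in ASA libraries and 44.4 to 52.8 RPKM in DMSO libraries. Of the other genes summed, Pax7 (log2 fold change -1.21) was lower and Tbx19 (0.87) higher, neither past the threshold. Of 5 lactotroph markers 4 were tested and 1 fell, the estrogen receptor Esr1 (41.9 ± 7.48 RPKM in ASA and 107 ± 22.3 RPKM in DMSO libraries, limma adjusted p = 0.0189). Esr1 kept that call without ASA replicate 1, ASA replicate 2 or DMSO replicate 2, and Pcsk2 only without ASA replicate 1 or ASA replicate 2.

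Some markers of other cell types differed beside Cga, and their part in its difference was not tested. Of 7 fibroblast and pericyte markers 3 were tested and 2, Dcn and Pdgfrb, rose. The third, Lum, was slightly lower and did not pass (log2 fold change -0.23, limma adjusted p = 0.734). The summed level of the 3 was 2143 to 3284 RPKM in ASA libraries and 1104 to 1166 RPKM in DMSO libraries, nearly all of it Dcn. Of 7 folliculostellate markers 2 were tested and 1, Anxa1, fell. Their summed level, nearly all of it Anxa1, was 448 to 690 RPKM in ASA libraries and 1116 to 2059 RPKM in DMSO libraries. Of 8 immune markers 2 were tested, Cd68 higher and Cd3e lower. Their summed level was 39.7 to 219 RPKM in ASA libraries and 23.3 to 33.2 RPKM in DMSO libraries. It was mostly Cd68 in ASA libraries and mostly Cd3e in DMSO libraries, so the sum describes neither gene. Of 5 somatotroph markers 3 were tested, Pou1f1, Ghsr and Sstr2, and none passed. Their summed level, most of it Pou1f1, was 677 to 894 RPKM in ASA libraries and 643 to 804 RPKM in DMSO libraries. Sstr2 averaged 0.910 RPKM in ASA libraries and 3.50 RPKM in DMSO libraries, a log2 fold change of -2.00 (limma, adjusted p = 0.0503). Pou1f1 (0.11) and Ghsr (0.31) were slightly higher. The list had 1 gene lower under median-of-ratios or upper quartile scaling, and none without ASA replicate 3 or any DMSO library. The 6 endothelial and 5 posterior pituitary markers were not analysed here. Of these called markers, Cd68 and Anxa1 kept their calls without DMSO replicate 2, Dcn and Cd3e lost theirs there and kept them without either ASA replicate 1 or ASA replicate 2, and all 4 lost them when ASA replicate 3, DMSO replicate 1 or DMSO replicate 3 was left out. Pdgfrb, the other fibroblast and pericyte gene called, kept its call only without ASA replicate 2 among the single libraries and lost it with the median exon as gene value (limma, adjusted p = 0.0632).

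The listed genes next to Cga and Pomc did not pass the test. Zfp292, 28.3 kb before Cga and on the other strand, had 6.59, 1.08 and 7.85 RPKM in ASA replicates 1, 2 and 3, against 9.58, 14.9 and 12.8 RPKM in DMSO replicates 1, 2 and 3 (limma, adjusted p = 0.160). Mob3b, 165 kb after Cga and also on the other strand, averaged 10.03 RPKM in ASA libraries and 7.45 RPKM in DMSO libraries (adjusted p = 0.321). Dnmt3a, 48.8 kb before Pomc on the same strand, averaged 3.96 RPKM in ASA libraries and 3.58 RPKM in DMSO libraries (adjusted p = 0.829). Efr3b, 5.78 kb after Pomc on the other strand, had 5.49, 6.76 and 7.03 RPKM in ASA replicates 1, 2 and 3, against 9.999, 12.3 and 11.9 RPKM in DMSO replicates 1, 2 and 3. Its groups did not overlap and its log2 fold change of -0.82 did not pass (limma, adjusted p = 0.0699). With ASA replicate 2 left out, Efr3b was called at a log2 fold change of -0.86 (limma, adjusted p = 0.0340). No listed exon of these neighbours overlaps a listed exon of Cga or Pomc.

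The genes most like Cga over the 6 libraries, by Pearson correlation of log2(RPKM + 0.1) among the tested genes with a proper symbol, were Atraid (r = 0.999), Slc6a6 (0.998), Sh3kbp1 (0.997), Pinlyp (0.996) and Ndufa11 (0.995). These values describe 6 libraries that share the group difference, and the 5 genes are the highest among all those tested, so r carries no test. Atraid had 28.6, 32.7 and 16.0 RPKM in ASA replicates 1, 2 and 3, against 103, 82.4 and 91.3 RPKM in DMSO replicates 1, 2 and 3. As for Cga, ASA replicate 3 was the lowest and ASA replicate 2 the highest of the ASA libraries. The same order held for Slc6a6, Sh3kbp1, Pinlyp and Ndufa11, and the choice by r favours it. Their log2 fold changes ran from -1.89 (Atraid) to -0.82 (Ndufa11), all smaller in size than that of Cga.

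The genes most like Pomc were Celf1 (r = 0.967), Limd2 (0.962), Hsd17b12 (0.956), Cnot9 (0.955) and Bbs7 (0.949). In each of them DMSO replicate 2 lay under both other DMSO libraries, as it did for Pomc. They were chosen by r over the same libraries, so this shared pattern follows largely from the choice. Limd2 had 5.54, 6.63 and 3.78 RPKM in ASA replicates 1, 2 and 3, against 7.73, 3.605 and 7.96 RPKM in DMSO replicates 1, 2 and 3. None of the 5 passed the test (limma, adjusted p between 0.357 and 0.733), and Hsd17b12 was called without both libraries numbered 2 (limma log2 fold change -0.57, adjusted p = 0.0397). Cga and Pomc correlated with r = 0.577 over the 6 libraries, and with 0.494 after each group's mean was removed.

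**Figure D5:**
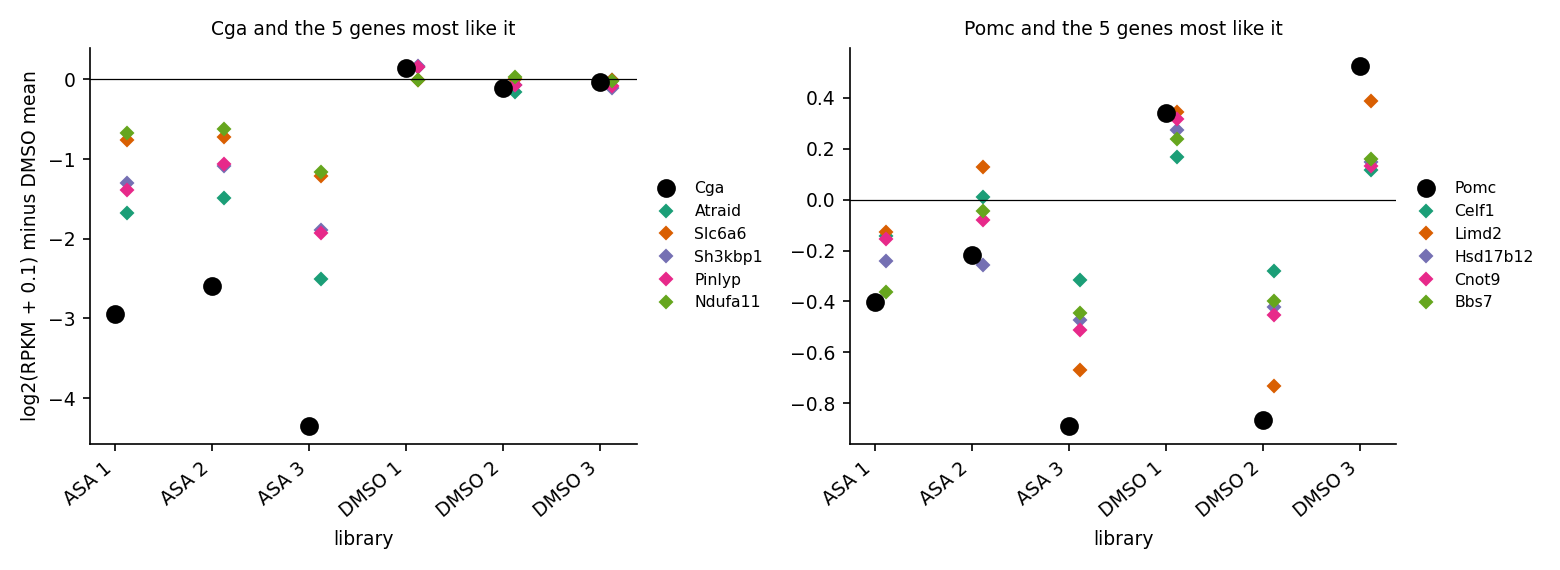
Log2(RPKM + 0.1) relative to the DMSO mean in the 3 ASA and the 3 DMSO libraries for Cga (left) and Pomc (right), in black, with the 5 genes of highest Pearson correlation to each in colour. The genes like Cga are low in all ASA libraries and lowest in ASA replicate 3, and those like Pomc are low in both ASA replicate 3 and DMSO replicate 2.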

How the data were processed

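The deposited values are log2 RPKM for single exons in each of the 6 libraries, judged from the file header and the values. Tools listed in the submitters' processing notes, with no role given, are edgeR 3.26.8, TopHat2 2.1.0, Bowtie2, cutadapt 1.14 and Trim Galore 0.4.1, and the build listed is Rnor_6.0. Which program counted reads, whether it used strand and which annotation it read is not given in the sources used here. Column names matched the codes within sample titles, and replicate numbers follow the deposited order and pair nothing.

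The log was undone and a constant shared by all libraries was removed. Between 95.7% and 96.8% of the values per library were then whole reads within 0.02 read, as were all those of Cga and Pomc. Gene values are reads summed over listed exons over exon length and library size. A symbol on several identifiers was represented by the one with the highest mean. No replicates agreed within sampling noise (chi-square per degree of freedom of 119 to 1089).

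The main test was limma 3.58.1 (R 4.3.3, eBayes with trend, two-sided) on log2(RPKM + 0.1) for 12502 genes whose mean RPKM reached 0.5, with Benjamini-Hochberg adjustment and a threshold of 0.05. Fold changes are on that log2 scale, which understates those of low genes. Exons were fitted alike over all rows, and exon usage with diffSplice. The fit was also run on simulated data with the noise of each gene drawn alike in all 6 libraries. Such data cannot show how the fit behaves with an outlying library such as ASA replicate 2. Alternatives were other pseudocounts, filters, scalings, variance models and gene values, voom on recovered reads, and each library left out. Leaving out both libraries numbered 2 was added after seeing the data. Cga, Pomc and the 18 gene lists (140 symbols, 80 with values, 1 further gene being not reported here) were chosen with earlier results of these data known. Genes were named by a rule: the hormone genes, called or highly expressed list members, the nearest listed neighbours and the 5 most correlated genes of Cga and of Pomc. Other list members named with values describe the cells or roles and were chosen after their values were seen.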

Additional observations from a re-analysis of the deposited data

How the results depend on the processing

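Cga was lower in ASA libraries in all 17 alternatives. In the 11 that did not leave out a single library its log2 fold change ran from -3.71 to -2.88 and it stayed past the threshold (adjusted p between 0.00569 and 0.0184). With single libraries left out it ran from -3.65 to -2.77 (limma, adjusted p between 0.00712 and 0.0867). Pomc was lower and not called in all 17. The number of genes called in the limma test was 948 to 1616 under other pseudocounts, filters, scalings, variance models and gene values, 3149 without both libraries numbered 2, and 0 to 2618 with a single library left out. In the fits without ASA replicate 3 and without DMSO replicate 3, which called 0 genes, the unadjusted p was under 0.05 for 2924 and 2342 genes. Of the 3 exons of Cga and Pomc, 0 to 2 were called with a single library left out and 2 under the other alternatives. The Cga exon usage difference (0.01 to 0.41) and the Cga to Pomc log2 ratio (-3.07 to -2.42) kept their direction. Among the 41 other genes followed, direction reversed for Prl (0.0651 without ASA replicate 1, and -1.01 to 0.0651 over the single-library fits), Pou1f1 (-0.0559 with the median exon, -0.0662 without both libraries numbered 2), Oprm1 (-0.17 to 0.41), Limd2 (-0.59 to 9.64e-05) and Dnmt3a (-0.0653 to 0.32), none of them called. The cause of these changes was not tested. No paired analysis was possible because the labels carry no replicate numbers. Low reads limit Pomc and the ASA values of Cga, with 29 to 85 reads per ASA library.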
